A study of Mus musculus with 12 samples.

Results

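The genes described here are 9 members of the ubiquitin pathway that has been linked to histone removal in spermatids: the ligases Rnf8, Rnf168, Phf7, Herc2 and Huwe1, the conjugating enzymes Ube2a and Ube2b, the scaffold Mdc1 and the deubiquitinase Usp7. They were taken by symbol from a table of FPKM (fragments scaled to transcript length and to the mapped total of the library), and all 9 were present among its 28643 usable gene symbols. The rule used no measured value. The table covers 12 libraries of round spermatids, the early haploid germ cells, sorted by flow cytometry under cycloheximide, which stalls ribosomes on their mRNA, from male mice aged 8 weeks. Mice of the control group, Igf2bp3+/-, carried a single disrupted copy of Igf2bp3, which encodes an RNA-binding protein, and mice of the knockout group, Igf2bp3-/-, carried no intact copy. The disruption was made with Cas9 in C57BL/6 zygotes, and by the study's methods the knockout males used were those with impaired fertility. The methods also describe matings between Igf2bp3-/- mice but not which matings gave the males used. Litter and selection therefore cannot be told apart from genotype, and no group without a disrupted copy was included. For each genotype, 3 replicates of total input RNA (RNA-seq) and 3 replicates of the mRNA carrying 4 or more ribosomes (RNC-seq) were sequenced.

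Ubiquitin is activated by an E1 enzyme, passed to an E2 conjugating enzyme and placed on a target by an E3 ligase, and deubiquitinases take it off again. In the response to DNA breaks, MDC1 binds the phosphorylated histone variant H2AX and recruits RNF8, HERC2 helps RNF8 to work with its E2, and RNF168 extends the mark on histone H2A. In spermatids, ubiquitination of histones precedes hyperacetylation and the exchange of histones for transition proteins and protamines. RNF8 and PHF7 have each been studied as ligases in that exchange, UBE2B is needed for male fertility in mice, and HUWE1 can ubiquitinate core histones.

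The closely related E2 genes Ube2a and Ube2b needed a check that their reads can be told apart. Their annotated coding sequences, of 459 bases each, were 77.6% identical, with 103 mismatched bases and no shared run longer than 17 bases. The stretch of 90 bases with the fewest mismatches, bases 283 to 372 of the coding sequence, is shown because it is where their reads are most easily confused. The sequences are from the GENCODE M21 transcripts of GRCm38, and capitals mark the 13 bases that differ.
Ube2a: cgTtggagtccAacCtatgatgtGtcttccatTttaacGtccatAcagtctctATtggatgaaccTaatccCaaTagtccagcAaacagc
Ube2b: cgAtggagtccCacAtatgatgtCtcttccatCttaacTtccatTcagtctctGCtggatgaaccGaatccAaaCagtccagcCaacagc
The mismatches are spread along the stretch, so that even here the longest shared run stayed far shorter than the stretch. No other annotated gene matched any of the 9 at 95% identity or more over 50% or more of its longest transcript.

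The positions below are those of GENCODE M21 on GRCm38, and each value is the sum over a gene's transcripts with no division into exons or UTRs. Rnf8 lies at chr17:29614790-29644991 and Mdc1 at chr17:35841515-35859670, both on the plus strand. Rnf168 lies at chr16:32277459-32301434 on the plus strand and Usp7 at chr16:8689595-8792308 on the minus strand. Ube2a, at chrX:36873900-36884222, and Huwe1, at chrX:151800807-151935417, are X-linked, and both are on the plus strand. Phf7 lies at chr14:31237689-31251317 and Ube2b at chr11:51985497-52000762, both on the minus strand, and Herc2 at chr7:56050196-56231800 on the plus strand. Of the exonic bases of Rnf8, 13.2% overlap Gm28043 on the same strand, so its value is uncertain by the reads of that part. The overlap of Huwe1 with Mir3113 covers 0.323% of its exonic bases, and no other member overlaps another gene.

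No read counts accompany the values, so depth is unknown. Relative depth was estimated from the most frequent product of FPKM and transcript length among genes with a single annotated transcript. It was 1 in Igf2bp3-/- RNA-seq replicate 1 and 0.380 to 0.550 in the other 11 libraries, and could not be checked against counts. The labels name no batch. Igf2bp3 itself had 38.2, 38.6 and 33.4 FPKM in Igf2bp3+/- RNA-seq and 31.7, 32.5 and 31.4 in Igf2bp3-/- RNA-seq, and the difference did not pass the test (log2 difference -0.20, limma adjusted p = 0.335). A frameshift can leave the transcript in place, so these levels do not check the genotype labels. The 7 round spermatid markers (Acrv1, Spaca1 and others) summed to 838 to 1033 FPKM in Igf2bp3+/- and 1150 to 1377 in Igf2bp3-/- RNA-seq. The 7 Leydig cell markers summed to 14.6 to 21.5 against 46.4 to 52.9 FPKM in RNA-seq, and to 6.23 to 13.9 against 50.4 to 100.5 in RNC-seq, with Hsd17b3 at 0 in every Igf2bp3+/- RNA-seq library. Of the 7 Sertoli markers, 6 were in the table, with Fshr at 0 in every RNC-seq library, and they summed to 3.34 to 4.05 against 6.96 to 7.65 FPKM in RNA-seq. The 5 macrophage markers summed to 2.07 to 2.38 against 4.46 to 5.17. The 4 peritubular markers summed to 1.72 to 2.13 against 4.46 to 5.74. The Leydig, Sertoli, macrophage and peritubular sums were thus higher in every Igf2bp3-/- RNA-seq library, and so was the round spermatid sum. The spermatogonia, spermatocyte and elongating spermatid sums overlapped between genotypes in RNA-seq. Of the markers tested in RNA-seq, 6 of 6 Leydig, 5 of 5 macrophage, 2 of 3 Sertoli and 2 of 4 peritubular genes had positive differences. So did 7 of 7 round spermatid, 5 of 7 spermatocyte, 2 of 4 spermatogonia and 2 of 7 elongating spermatid genes. The part of the mix of cells in the genotype differences given below was not tested.

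In Igf2bp3+/- RNA-seq the levels of the 9 genes spanned Phf7, at 942 ± 34.1 FPKM (SD, n = 3), to Rnf8, at 2.49 ± 0.238. Phf7, which encodes a PHD finger protein of spermatids with ligase activity toward histones, measured 904, 969 and 952 FPKM, above every other member in every library. Usp7 (71.1, 80.3 and 78.4 FPKM) and Ube2b (74.2, 65.2 and 51.9) followed, and their libraries overlapped. Mdc1 came next, at 27.9, 33.2 and 30.9 FPKM. Its libraries lay below all of those of Ube2b and above all of those of Ube2a, which measured 12.0, 8.99 and 12.2 FPKM. Ube2b, the autosomal E2, thus had a higher FPKM than its X-linked relative in all 3 libraries.

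The ligases other than Phf7 were low. Huwe1 measured 7.20, 8.39 and 8.93 FPKM and Herc2 6.85, 7.63 and 8.34 in Igf2bp3+/- RNA-seq, and these neighbours overlapped. Rnf168, at 6.04, 4.85 and 5.11 FPKM, and Rnf8, at 2.52, 2.24 and 2.72, were lowest, and neither overlapped its neighbours. In Igf2bp3-/- RNA-seq the order differed only where Ube2b, now with the higher mean, and Usp7 overlapped, and Herc2 there overlapped Rnf168 in place of Huwe1.

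**Figure D1:**
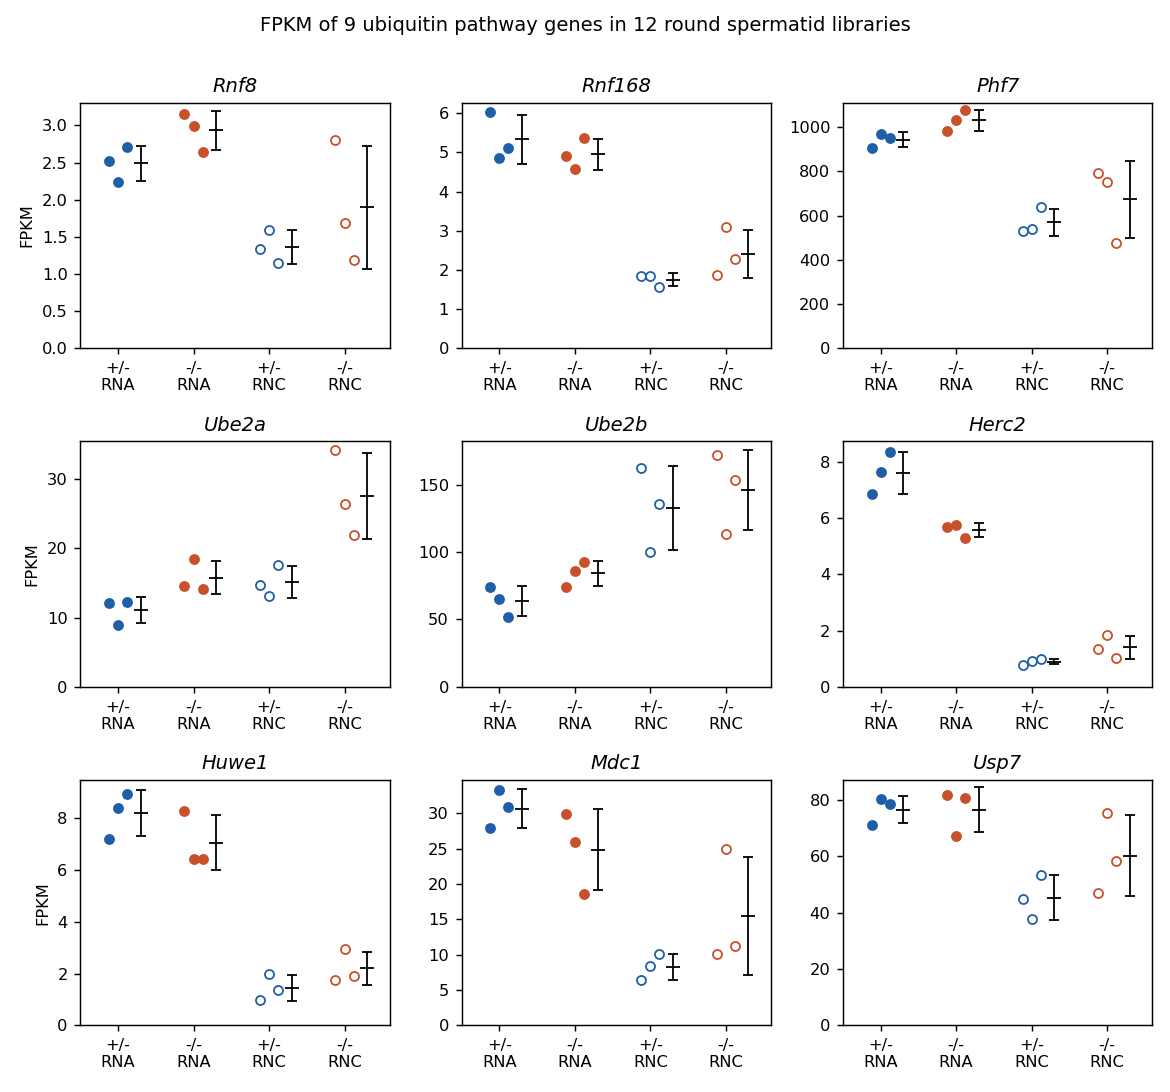
FPKM (vertical axis, from 0, a separate scale in each panel) of the 9 genes in Igf2bp3+/- (blue) and Igf2bp3-/- (red) round spermatids, in RNA-seq (filled) and RNC-seq (open). Each point is a library, and the bar beside it gives the mean and SD (n = 3). Ube2b and Ube2a sit higher in RNC-seq than in RNA-seq, whereas Herc2, Huwe1, Rnf168 and Phf7 sit lower in both genotypes.

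The first question the design poses is how far each mRNA is loaded with ribosomes in control cells. Translational efficiency (TE) is taken here as RNC-seq over RNA-seq, and its log2 value as the RNC-seq minus RNA-seq difference of log2(FPKM + 0.1). Since FPKM is scaled within each library, it gives loading relative to the other mRNAs of the sample. In Igf2bp3+/- cells 8 of the 9 genes differed between the assays in limma's test at an adjusted p of 0.05 over all genes, 1 higher and 7 lower on polysomes. Of all genes tested, 43.8% passed, 18.6% higher and 25.2% lower. The median log2 TE was -0.83 over the 9 genes and -0.10 over all genes. In none of the 9 genes did the RNC-seq and RNA-seq libraries overlap, which held for 55.6% of all genes.

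The E2 genes were the members with more RNA on polysomes. Ube2b measured 162, 100 and 135 FPKM in Igf2bp3+/- RNC-seq, every library above the RNA-seq libraries, and its log2 TE was 1.04 ± 0.20 (SE, limma adjusted p = 0.00111). Ube2a measured 14.7, 13.1 and 17.6 FPKM in RNC-seq. Its libraries also lay above those of RNA-seq, but the log2 TE of 0.45 ± 0.20 did not pass (limma adjusted p = 0.0781).

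Herc2, Huwe1, Mdc1 and Rnf168 were the members least represented on polysomes. Herc2, which encodes a giant HECT-type ligase, fell from 7.60 ± 0.744 FPKM (SD, n = 3) in RNA-seq to 0.791, 0.916 and 0.984 in RNC-seq. Its log2 TE was -2.95 ± 0.21 (SE, limma adjusted p = 2.42e-06), or 7.73-fold less, and 0.500% of all genes had a lower value or the same. Huwe1, another giant HECT-type ligase, measured 0.972, 1.98 and 1.36 FPKM in RNC-seq, with a log2 TE of -2.47 ± 0.25 (limma adjusted p = 1.42e-05). Mdc1 measured 6.43, 8.33 and 10.1 FPKM in RNC-seq, all below its RNA-seq libraries. Its log2 TE was -1.89 ± 0.29 (limma adjusted p = 0.000226). Rnf168, the RING-type ligase that acts after RNF8, measured 1.85, 1.84 and 1.56 FPKM, with a log2 TE of -1.55 ± 0.20 (limma adjusted p = 6.11e-05).

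The remaining 3 genes were lower on polysomes by smaller amounts. Phf7 measured 529, 538 and 639 FPKM in Igf2bp3+/- RNC-seq and remained the most abundant member there, with a log2 TE of -0.73 ± 0.18 (limma adjusted p = 0.00438). Usp7, which removes ubiquitin from targets that include MDM2 and p53, measured 45.0, 37.7 and 53.5 FPKM, with a log2 TE of -0.77 ± 0.18 (limma adjusted p = 0.00373). Rnf8 measured 1.34, 1.60 and 1.15 FPKM, with a log2 TE of -0.83 ± 0.26 (limma adjusted p = 0.0190). The call of Rnf8 was lost when Igf2bp3+/- replicate 1 (limma adjusted p = 0.0940) or replicate 3 (limma adjusted p = 0.152) was left out.

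On polysomes of control cells the order of the members therefore differed from that in total RNA. Phf7, Ube2b and Usp7 led without overlap, at means of 569, 133 and 45.4 FPKM, and Ube2a (15.1) now stood above Mdc1 (8.29). Herc2, at 0.897 ± 0.0977 FPKM (SD, n = 3), had the lowest mean and did not overlap Rnf8 (1.36), the next by mean. The highest library of Herc2 (0.984) lay above the lowest of Huwe1 (0.972). Rnf168, Huwe1 and Rnf8 overlapped their neighbours among themselves.

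In Igf2bp3-/- cells 6 of the 9 genes differed between the assays, 2 higher and 4 lower on polysomes, where 26.5% of all genes passed, 12.5% higher and 14% lower. The median log2 TE was -0.68 over the 9 genes and -0.04 over all genes. The libraries of the assays did not overlap in 6 of the 9 genes and in 40.7% of all genes. Ube2a measured 34.1, 26.4 and 21.9 FPKM in RNC-seq against 14.6, 18.5 and 14.2 in RNA-seq, without overlap, with a log2 TE of 0.79 ± 0.20 (limma adjusted p = 0.0101). Ube2b measured 172, 114 and 153 against 74.4, 86.0 and 92.7 FPKM, also without overlap, with a log2 TE of 0.78 ± 0.20 (limma adjusted p = 0.0131). Both E2 calls were lost when Igf2bp3-/- replicate 1 was left out, with limma adjusted p-values of 0.123 for Ube2a and 0.155 for Ube2b, and that of Ube2b also without replicate 3 (limma adjusted p = 0.0684).

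Herc2 and Huwe1 were again the lowest members. Herc2 measured 1.33, 1.84 and 1.03 FPKM in Igf2bp3-/- RNC-seq against 5.69, 5.76 and 5.30 in RNA-seq, and its log2 TE was -1.96 ± 0.21 (limma adjusted p = 6.57e-05). Huwe1 measured 1.76, 2.94 and 1.90 against 8.27, 6.43 and 6.42 FPKM, and its log2 TE was -1.66 ± 0.25 (limma adjusted p = 0.000587). Neither gene overlapped between the assays. Rnf168 measured 1.86, 3.08 and 2.29 against 4.90, 4.58 and 5.38 FPKM, with a log2 TE of -1.03 ± 0.20 (limma adjusted p = 0.00227). Phf7 measured 793, 750 and 474 against 982, 1031 and 1079 FPKM, with a log2 TE of -0.65 ± 0.18 (limma adjusted p = 0.0155). The call of Phf7 was lost without Igf2bp3-/- replicate 3 (limma adjusted p = 0.109), the library with 474 FPKM.

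For Mdc1, Rnf8 and Usp7 the assays overlapped in Igf2bp3-/- cells and the difference did not pass. Mdc1 measured 10.1, 25.004 and 11.3 FPKM in RNC-seq against 29.9, 25.9 and 18.6 in RNA-seq (log2 TE -0.78 ± 0.29, limma adjusted p = 0.0649). Rnf8 measured 2.81, 1.69 and 1.19 against 3.16, 3.00 and 2.64 (log2 TE -0.68 ± 0.26, limma adjusted p = 0.0676). Usp7 measured 47.1, 75.4 and 58.3 against 81.8, 67.2 and 80.9 (log2 TE -0.37 ± 0.18, limma adjusted p = 0.1498). For Mdc1 and Usp7 the high RNC-seq value was that of replicate 2.

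That library, Igf2bp3-/- RNC-seq replicate 2, stood apart from the other 11. Relative to its group, transcripts over 5000 bases exceeded those of up to 1500 bases by 0.75 on the log2 scale, against -0.49 to 0.36 in the other libraries. Without it, an alternative added after the data were seen, 8 of the 9 genes passed between the assays in Igf2bp3-/- cells (34% of all genes). The library held the highest RNC-seq value of Mdc1 and Usp7, so leaving it out had to lower their log2 TE, which was then -1.19 and -0.54.

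The log2 TE of the members broadly went with transcript length, though that of Rnf168, with 4460 bases, was lower than those of the longer Usp7 and Rnf8. The longest annotated transcripts of Ube2a and Ube2b are 1732 and 1792 bases, those of Phf7, Rnf168, Usp7 and Rnf8 run from 3761 to 5404, Mdc1 has 7335, and Huwe1 and Herc2 have 14579 and 15261. Over all genes in Igf2bp3+/- cells, the median log2 TE went from 0.44 for transcripts of up to 1500 bases to -1.04 for the 296 genes over 10000 bases. In Igf2bp3-/- cells it went from 0.36 to -0.55. The low values of the long members were thus shared in sign by other long transcripts.

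Within their length classes the members still differed in place. In Igf2bp3+/- cells, Herc2 had a lower log2 TE than all but 17 of the 296 genes over 10000 bases, and 37 lay below Huwe1. Rnf168 stood at the 6.29 percentile of 4311 genes of 3001 to 5000 bases and Mdc1 at the 8.75 percentile of 2262 genes of 5001 to 10000 bases, whereas Rnf8 stood near the middle of the same class, at 47.2. Ube2b stood at the 95.7 percentile of the 4987 genes of 1501 to 3000 bases, and Ube2a at 80.6. After a smooth trend on transcript length was removed from each library, an alternative added after the data were seen, 5 of the 9 genes differed between the assays in Igf2bp3+/- cells (38.5% of all genes). Ube2b was higher, at 1.04, and Herc2 (-1.70), Huwe1 (-1.24), Mdc1 (-1.05) and Rnf168 (-1.02) were lower. The calls of Rnf8, Phf7 and Usp7 were lost, at -0.17, -0.32 and -0.19, with limma adjusted p-values of 0.629, 0.0668 and 0.320. In Igf2bp3-/- cells 6 genes passed with the trend removed (23% of all genes), 2 higher and 4 lower.

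**Figure D2:**
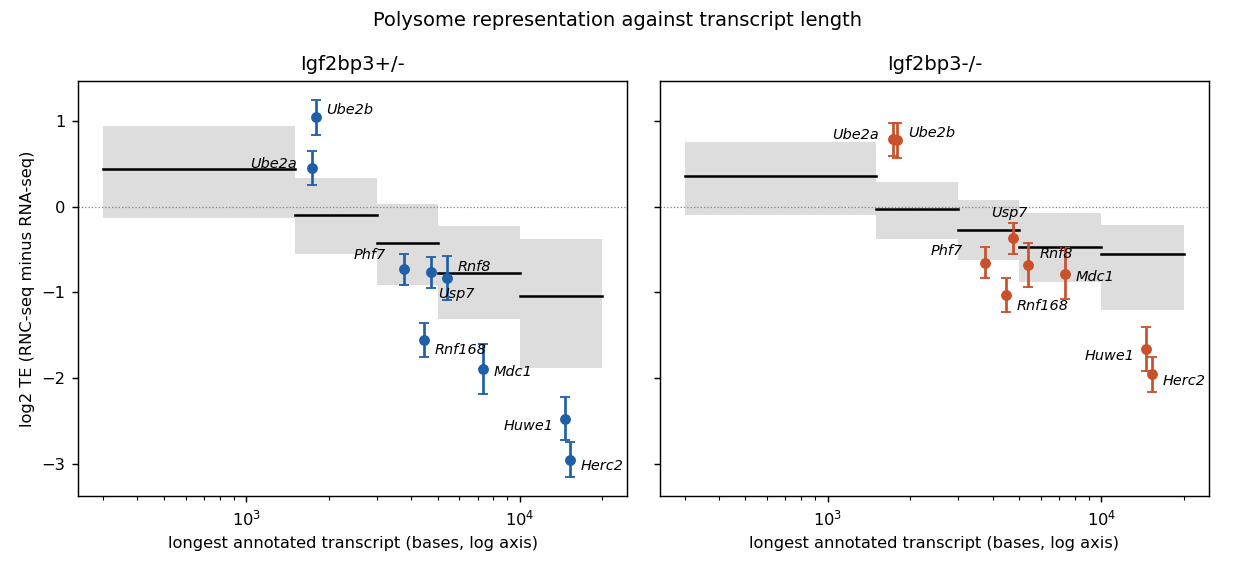
Log2 TE, the RNC-seq minus RNA-seq difference (vertical axis), against the longest annotated transcript of each gene (horizontal axis, bases, log scale) in Igf2bp3+/- (left) and Igf2bp3-/- (right). Points are the 9 genes with their SE, and black lines and grey boxes are the median and quartiles of all genes in 5 length classes, whose outer limits are drawn at fixed ends. In Igf2bp3+/-, Herc2 and Huwe1, at -2.95 and -2.47, lie below the box of their class. Mdc1 and Rnf168 also lie below the boxes of theirs, and Ube2a and Ube2b lie above that of their own.

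The next question is whether loss of Igf2bp3 changed the amount of these mRNAs. In RNA-seq, none of the 9 genes differed between genotypes in limma's test at an adjusted p of 0.05, where 0.256% of all genes passed. At an unadjusted p of 0.05, 3 passed against 15.7% of all genes. In 4 members, as in 22.7% of all genes, no Igf2bp3-/- library fell within the range of the Igf2bp3+/- libraries. Phf7, Ube2a and Ube2b lay above it (14.1% of all genes) and Herc2 below it (8.68%). In bulk RNA, fewer cells of a type and less RNA per cell cannot be told apart. Differences are Igf2bp3-/- minus Igf2bp3+/-, and the library values are those given above.

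Both E2 genes had positive differences in total RNA. The log2 difference of Ube2a was 0.51 ± 0.16 (SE), with a 95% interval of 0.15 to 0.86 and a limma adjusted p of 0.212, and its lowest Igf2bp3-/- library (14.2 FPKM) lay above the highest Igf2bp3+/- library (12.2). That of Ube2b was 0.41 ± 0.14 (limma adjusted p = 0.239), with Igf2bp3-/- libraries starting at 74.4 FPKM, close above the highest Igf2bp3+/- library at 74.2. Phf7 had a difference of 0.13 ± 0.08 (limma adjusted p = 0.472), which turned to -0.049 under quantile normalization.

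The long ligases and the scaffold had negative differences. Herc2 had -0.44 ± 0.12 (limma adjusted p = 0.187), a mean of 5.58 ± 0.244 against 7.60 ± 0.744 FPKM (SD, n = 3), with a 95% interval of -0.70 to -0.17. Mdc1 had -0.33 ± 0.17 (limma adjusted p = 0.379), and its lowest library was Igf2bp3-/- replicate 3 at 18.6 FPKM. Huwe1 had -0.22 ± 0.14 (limma adjusted p = 0.484). Rnf8 had 0.23, Rnf168 -0.10 and Usp7 -0.0034, with 95% intervals of -0.10 to 0.56, -0.40 to 0.20 and -0.24 to 0.23. Over all genes, the median difference went from 0.13 for transcripts of up to 1500 bases to -0.19 for those over 10000. Herc2, Huwe1 and Mdc1, the longest members, were below 0 and Ube2a and Ube2b, the shortest, above it, whereas Rnf8 stood at the 88.7 percentile of its length class.

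In RNC-seq again none of the 9 genes passed (limma, 0.115% of all genes), and 2 did at an unadjusted p of 0.05, both with positive differences, against 6.48% of all genes and 5.36% with positive ones. The same 2, Ube2a and Mdc1, passed when a change of over 1.5-fold was also asked for (5.78% of all genes). The log2 difference was above 0 in all 9 members, with a median of 0.42 against 0.13 over all genes, although that of Ube2b went to -0.0057 under quantile normalization and to -0.041 without Igf2bp3+/- RNC-seq replicate 2. This difference also went with transcript length over all genes, from a median of 0.05 for transcripts of up to 1500 bases to 0.28 for those over 10000. With the length trend removed, Mdc1 had 0.57, Huwe1 0.31 and Herc2 0.27, against 0.71 for Ube2a. The unadjusted limma p of Mdc1 was then 0.0638. The genotypes were free of overlap in 3 members, Rnf168, Ube2a and Herc2, against 11.3% of all genes, with all 3 higher in Igf2bp3-/- (9.44% of all genes). The spread within Igf2bp3-/- RNC-seq was wide: Mdc1 had an SD of 8.30 FPKM about a mean of 15.4.

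Ube2a had the difference with the smallest p on polysomes, 0.84 ± 0.23 with a 95% interval of 0.34 to 1.35 (limma adjusted p = 0.592). Its mean was 27.5 ± 6.18 FPKM in Igf2bp3-/- against 15.1 ± 2.28 in Igf2bp3+/- (SD, n = 3), and every Igf2bp3-/- library was higher. Mdc1 had 0.79 ± 0.33 (limma adjusted p = 0.756), where the lowest Igf2bp3-/- library (10.06 FPKM) overlapped the highest Igf2bp3+/- library (10.11). Without Igf2bp3-/- RNC-seq replicate 2 the differences were 0.38 for Mdc1, 0.35 for Herc2 and 0.38 for Huwe1, against 0.86 for Ube2a. Herc2 had 0.56 ± 0.30 (limma adjusted p = 0.805), and its libraries ran from 1.03 to 1.84 FPKM against 0.791 to 0.984. Huwe1 had 0.60, Rnf168 0.42, Usp7 0.40, Rnf8 0.38, Phf7 0.21 and Ube2b 0.15, with limma adjusted p-values of 0.800, 0.830, 0.808, 0.854, 0.889 and 0.930. Igf2bp3-/- RNC-seq replicate 2, the library that stood apart in length, held the highest value of Rnf168, Herc2, Huwe1, Mdc1 and Usp7, but not that of Ube2a.

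The last comparison asks whether ribosome loading itself differed between genotypes, as the difference of log2 TE. It shares its libraries with the comparisons above and is not independent of them. None of the 9 genes passed limma's test (0.00543% of all genes, a single gene), and 3 did at an unadjusted p of 0.05 (7.13% of all genes, 5.54% with positive differences), namely Herc2, Mdc1 and Huwe1. All 3 also differed by over 1.5-fold (6.55% of all genes). The median difference was 0.40 over the 9 genes and 0.06 over all genes, and it was positive in all members but Ube2b.

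Herc2 had a TE difference of 0.99 ± 0.29 (SE), with a 95% interval of 0.37 to 1.62 (limma adjusted p = 0.686). Its ratio of mean RNC-seq to mean RNA-seq FPKM was 0.118 in Igf2bp3+/- and 0.251 in Igf2bp3-/-, a 2.13-fold difference. The value combined a lower RNA-seq level with a higher RNC-seq level, each in all 3 libraries. Mdc1 had 1.11 ± 0.42 (limma adjusted p = 0.686), with ratios of 0.270 and 0.622, and its difference was 0.71 without Igf2bp3-/- RNC-seq replicate 2 and 1.51 without Igf2bp3-/- replicate 1. Huwe1 had 0.82 ± 0.36 (limma adjusted p = 0.689), with ratios of 0.176 and 0.313, and 0.54 without Igf2bp3-/- replicate 2. Of all genes, 29.3% had ratios that differed by more than 1.5-fold, 20% with the higher ratio in Igf2bp3-/-, as in these 3 of the 9.

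The other members had intervals that held 0. Rnf168 had a TE difference of 0.52 (95% interval -0.08 to 1.12), Usp7 0.40 (-0.15 to 0.95) and Ube2a 0.34 (-0.26 to 0.93). Rnf8 had 0.15 (-0.64 to 0.94) and Phf7 0.08 (-0.45 to 0.62), and both changed sign when the length trend was removed, to -0.094 and -0.066. Ube2b, the member most represented on polysomes in the control, had -0.27 (-0.89 to 0.35). These intervals leave room for differences of either sign.

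The TE difference also went with transcript length over all genes, from a median of -0.10 for transcripts of up to 1500 bases to 0.44 for those over 10000. Among the 296 genes over 10000 bases, 32 had a larger TE difference than Herc2 and 56 a larger one than Huwe1, while Mdc1 stood at the 97.6 percentile of 2262 genes of 5001 to 10000 bases. With the length trend removed, Herc2 had 0.52, Mdc1 0.79 and Huwe1 0.35, with limma adjusted p-values of 0.595, 0.595 and 0.733.

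**Figure D3:**
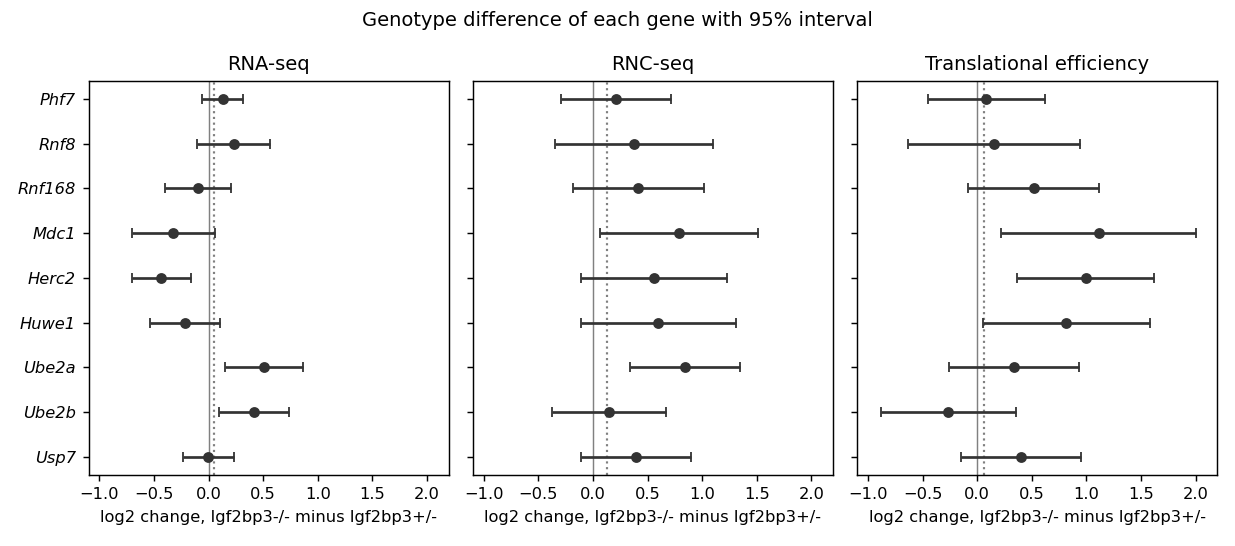
Log2 difference, Igf2bp3-/- minus Igf2bp3+/- (horizontal axis), of each gene in RNA-seq, RNC-seq and TE, with 95% intervals from limma (3 libraries per group). The solid line marks 0 and the dotted line the median of all genes (0.05, 0.13 and 0.06). The intervals of Ube2a, Ube2b and Herc2 leave out 0 in RNA-seq, those of Ube2a and Mdc1 in RNC-seq and those of Mdc1, Herc2 and Huwe1 in TE, none of which passed after adjustment over all genes.

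Related genes were looked at in 6 lists of 58 symbols, of which 56 were in the table. Fam175a and Bre, other names of Abraxas1 and Babam2, were not, and near copies of these genes were not searched. No listed gene differed between genotypes in limma's test in RNA-seq (54 tested), RNC-seq (53) or TE (53), and 11, 1 and 5 passed at an unadjusted p of 0.05, where 15.7%, 6.48% and 7.13% of all genes did. In Igf2bp3+/- cells, 50.9% of the 53 genes differed between RNC-seq and RNA-seq, 4 higher and 23 lower on polysomes, against 43.8% of all genes. In Igf2bp3-/- cells 34.0% did, 4 higher and 14 lower, against 26.5% of all genes. The median log2 TE of the lists together was -0.30 in either genotype, against -0.10 and -0.04 over all genes. With the length trend removed, the split was 13 higher and 14 lower in Igf2bp3+/- cells and 5 higher and 9 lower in Igf2bp3-/- cells, where 38.5% and 23% of all genes passed.

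Of the 8 damage-signalling and reader genes tested, which act upstream of RNF8 or read its mark, 1 was higher and 3 were lower on polysomes in Igf2bp3+/- cells, a share of 50% where 43.8% of all genes passed. H2afx, which encodes the histone variant that MDC1 binds once phosphorylated, was higher (log2 TE 0.78). Brca1 (-2.69), the kinase gene Atr (-2.12) and Topbp1 (-1.73) were lower, though Brca1 had a mean of only 0.126 FPKM in RNC-seq. In Igf2bp3-/- cells 1 gene of the list was higher and 4 were lower, a share of 62.5% where 26.5% of all genes passed. In the RAP80 complex, which binds ubiquitin chains at breaks, 1 of 4 genes was lower in Igf2bp3+/- cells, Babam2 at -0.79. None passed in Igf2bp3-/- cells, where Babam2 had -0.30 (limma adjusted p = 0.133).

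Of the 11 other E2 and cofactor genes tested, 3 were higher and 1 was lower in Igf2bp3+/- cells, against 18.6% and 25.2% of all genes. Ube2v2, the partner of the E2 that makes chains for RNF8, had a log2 TE of 0.91, Ube2e3 0.83 and the ubiquitin gene Ubb 0.72. The E1 gene Uba1 was lower, at -1.38. In Igf2bp3-/- cells 3 were higher, Ube2v2 (0.99), Ube2e1 (0.76) and Ubb (0.48), and no gene of the list was lower.

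No gene of the remaining 3 lists passed limma's test as higher on polysomes in either genotype. Of 12 other ligases of histones H2A and H2B, 7 were lower in Igf2bp3+/- and 5 in Igf2bp3-/- cells, where 25.2% and 14% of all genes were lower. Rnf20, a ligase for H2B, had -1.87 and -1.56 in the respective genotypes, and Trip12, which limits RNF168, had -1.47 and -1.18. The mean of Rnf20 was only 0.834 FPKM in Igf2bp3+/- RNA-seq, and 0.160 and 0.128 in RNC-seq of the respective genotypes. Of 10 histone deubiquitinases and USP7 partners, 7 and 2 were lower, the second near the share over all genes. Usp22, of the SAGA complex, had -2.11 and -1.66, but its RNC-seq means were only 0.0595 and 0.152 FPKM. The first lies below the 0.1 FPKM added before taking logs. Gmps, a partner of USP7, had -0.62 and -0.71. Of 8 genes of histone acetylation and removal, 4 and 3 were lower. Psme4, whose product activates a proteasome that degrades acetylated histones, had -1.35 and -1.08, and Chd5, a chromatin remodeller, had -2.28 and -1.57. The study picked Chd5 in part by a raised TE in Igf2bp3-/- in these same libraries, and also by binding of IGF2BP3 to its RNA in testis.

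**Figure D4:**
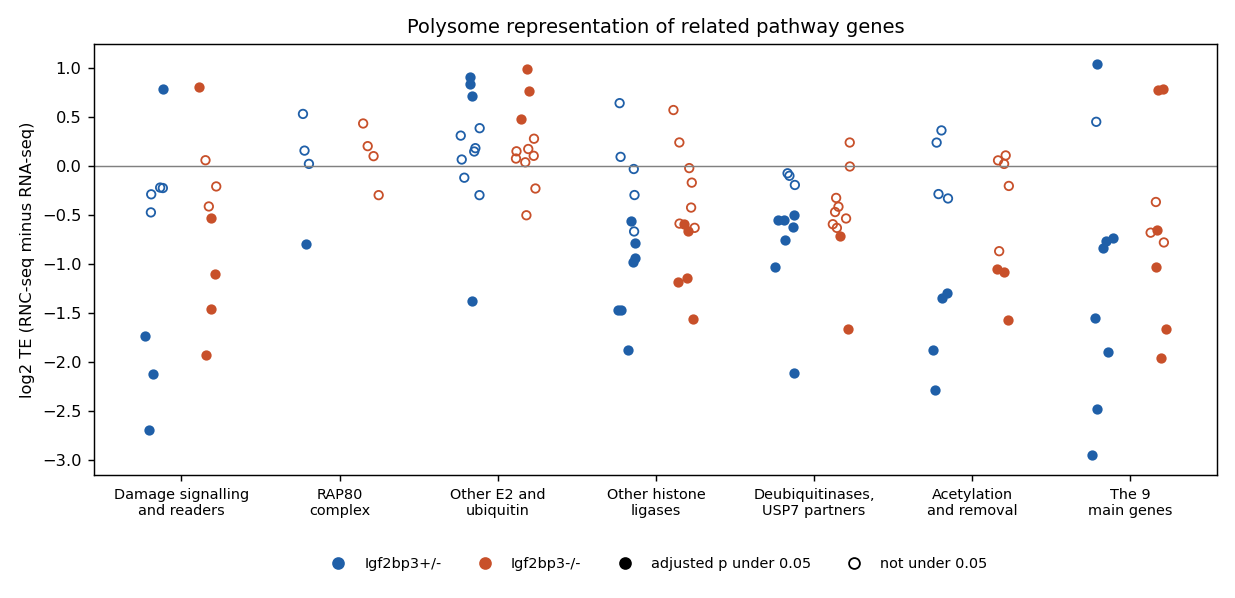
Log2 TE, the RNC-seq minus RNA-seq difference (vertical axis), of the related genes in 6 lists and of the 9 main genes (horizontal axis), in Igf2bp3+/- (blue) and Igf2bp3-/- (red). Each point is a gene, filled where limma's adjusted p was under 0.05, and points are spread sideways for legibility only. The E2 list holds 3 filled points above 0 in each genotype, whereas the ligase, deubiquitinase and acetylation lists hold filled points below 0 alone.

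The genes most like each member in pattern were found by Pearson's r of log2(FPKM + 0.1) over the 12 libraries among 12264 genes with a mean of at least 1 FPKM. The 12 points share their libraries and depth and fall into the assays, so r mostly takes in the contrast of RNC-seq and RNA-seq, and it is given as a description. Herc2 was most like Akap12 (0.998) and Zan (0.997), and its closest member was Huwe1 (0.980). Huwe1 was most like Spen (0.989) and Srcap (0.988), Mdc1 like Xpo6 (0.991) and Arhgap35 (0.988), and Usp7 like Otud4 (0.977) and Kifap3 (0.974).

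For the RING ligases and Phf7, Rnf168 was most like Tecpr1 (0.985) and Zmym6 (0.983), Rnf8 like Acbd6 (0.982) and Mospd4 (0.969), and Phf7 like Haspin (0.988) and Gtf2f1 (0.984). Ube2b was most like Psmb2 (0.991) and Gtpbp8 (0.988). Ube2a was most like Tmem95 (0.944) and Cpsf4l (0.936), the lowest of these values. The E2 genes had an r of 0.712 with each other, below the highest r that any other member had with a member.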

How the data were processed

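Round spermatids of Igf2bp3+/- and Igf2bp3-/- mice were profiled by RNA-seq and RNC-seq, with 3 replicates each. The values, 1 FPKM per gene and library, were computed and deposited by the authors. By the study's methods and the submitters' processing notes, reads were trimmed with Trim Galore 0.6.6, mapped with HISAT2 to GRCm38 and assembled into transcript levels by StringTie 2.1.7. The labels and the methods differ on the library kit and instrument, and use of strand is not given in the sources used here. Columns named WT hold Igf2bp3+/- libraries. Of 28668 symbols, 25 had been turned into dates and were left out.

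The test was that of limma 3.58.1 (R 4.3.3), with an intensity trend, on log2(FPKM + 0.1), among genes with a mean above 0.1 FPKM in the libraries fitted (for TE, in each assay). A fold change on this scale understates that of low genes. Genotype was tested within each assay over 6 libraries, and TE as the interaction over all 12, with the assay difference of each genotype from the same fit. Tests were two-sided, with Benjamini-Hochberg adjustment over all genes and a limit of 0.05. The scripts were tested on simulated data.

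By the study's methods, cells were isolated from each mouse and the extract was divided into the RNA-seq input and the gradient for RNC-seq, so the assays share extracts. The labels do not say that same-numbered libraries share one, and a supplementary sheet of the study numbers the same libraries differently. Deviations of same-numbered libraries from their group means correlated between -0.104 and 0.205 across assays. This cannot show whether libraries of different numbers share an extract. No replicate block entered the main design, so its TE tests leave the sharing of extracts out. The study calls its replicates biological, and the labels do not say which mouse gave which library. Read depth is unknown and no counting interval was computed. Near copies were sought with BLAST 2.17.0. The members, the gene lists, the rule for named genes (all members, the 2 genes most like each, and up to 4 listed genes of largest change in each direction) and the tests were chosen with earlier results of these data known. Where a list was described by its own members, those with a role relevant to the 9 genes were named after their values were seen.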

Additional observations from a re-analysis of the deposited data

Results flagged for a closer look

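Herc2 was the only one of the 9 genes whose Igf2bp3-/- libraries all lay on the low side in RNA-seq and all on the high side in RNC-seq. In RNA-seq the Igf2bp3-/- libraries ran from 5.30 to 5.76 FPKM against 6.85 to 8.34 in Igf2bp3+/-. In RNC-seq they ran from 1.03 to 1.84 against 0.791 to 0.984. Of all genes, 8.68% were lower without overlap in RNA-seq and 9.44% higher without overlap in RNC-seq. The share of genes with both was not computed. The difference between the genotype effects was 0.99 on the log2 scale, with an unadjusted p of 0.00432 and a limma adjusted p of 0.686 over all genes. It was 0.52 with the length trend removed, and 7.13% of all genes passed at an unadjusted p of 0.05. Without Igf2bp3-/- RNC-seq replicate 2 it was 0.79, and the RNC-seq difference of Herc2 fell from 0.56 to 0.35.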

How the results depend on the processing

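With another threshold, an unadjusted p under 0.05 and over 1.5-fold, 2 of the 9 genes passed in RNC-seq and 3 in the TE difference, against 5.78% and 6.55% of all genes, and 3 passed in TE by a ratio of mean FPKM over 1.5-fold. With the length trend removed, 5 members passed in Igf2bp3+/- cells (38.5% of all genes). Leaving out a replicate gave 0 members in RNA-seq, RNC-seq and the TE difference, 7 to 8 in Igf2bp3+/- and 4 to 8 in Igf2bp3-/- cells. No member passed a genotype test at an adjusted p under 0.05 in any setting run. Over all alternatives, the genes called numbered 4 to 84 in RNA-seq (52 as reported), 0 to 48 in RNC-seq (22), 0 to 4 in the TE difference (1), 5302 to 8963 in Igf2bp3+/- (8059) and 2189 to 6227 in Igf2bp3-/- cells (4886).

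Among single genes, 15 values changed sign, and the cause was not tested. In RNA-seq, Phf7 went to -0.049 under quantile normalization. Usp7, at -0.0034, went to 0.023 with the length trend removed and ranged from -0.056 to 0.088 with a replicate left out, above 0 without Igf2bp3+/- replicate 2 or 3 or Igf2bp3-/- replicate 2. In RNC-seq, Ube2b went to -0.0057 under quantile normalization and ranged from -0.041, without Igf2bp3+/- replicate 2, to 0.32. In TE, Phf7 went to -0.048 after median centring and to -0.066 with the length trend removed, and ranged from -0.090 to 0.35 with a replicate left out, below 0 without Igf2bp3-/- replicate 1, replicate 2 or RNC-seq replicate 2 alone. Rnf8 went to -0.094 with the length trend removed and ranged from -0.11 to 0.35 with a replicate left out, below 0 without Igf2bp3+/- replicate 3 or Igf2bp3-/- replicate 1.

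With a replicate block, which rests on shared numbers only, 0 members passed in each genotype comparison, 8 in Igf2bp3+/- and 7 in Igf2bp3-/- cells, where Mdc1 was added (limma adjusted p = 0.0307). Over all alternatives, 5302 to 8963 genes passed in Igf2bp3+/- and 2189 to 6227 in Igf2bp3-/- cells. Mdc1 also passed there with a filter above 1 FPKM (limma adjusted p = 0.0461) and with sample weights (0.0207). In Igf2bp3+/- cells, Rnf8 was lost after median centring (limma adjusted p = 0.0551) and quantile normalization (0.0569), and Ube2a was added by both (0.0185 and 0.0492) and by sample weights (0.0157). Read depth is unknown, so the precision of low values in RNC-seq could not be given.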

Other observations

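Of the related genes, 5 had a TE difference between genotypes at an unadjusted p of 0.05, all positive and none past limma's adjustment over all genes. Of all genes, 7.13% passed at that p and 5.54% with a positive difference. Whether 5 among 53 exceeds that share was not tested. Epc2, a subunit of the NuA4 acetyltransferase complex, had 1.01, the E1 gene Uba1 0.88, Chd5 0.71, Atr 0.66 and Babam2 0.50, each with a limma adjusted p of 0.686 or 0.689. For Uba1, mean FPKM on polysomes was 26.8 in Igf2bp3+/- and 48.9 in Igf2bp3-/-, whereas in RNA-seq it was 70.1 and 64.9. For Atr it was 3.91 and 4.84 on polysomes and 17.3 and 13.4 in RNA-seq.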
